A study of Arabidopsis thaliana with 27 samples.

Results

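Seeds of the PDAT line of Arabidopsis thaliana were compared with seeds of the fae1 line at 11-12 days after flowering. The libraries were taken by their labels, 3 biological replicates (A, B and C) of PDAT and 3 of fae1 at that stage, which makes 6 of the 27 RNA sequencing libraries of the study. The PDAT line carries 3 genetic changes: the fae1 mutation, the castor bean fatty acid hydroxylase gene RcFAH12 expressed in seeds, and the castor bean phospholipid:diacylglycerol acyltransferase gene RcPDAT1a expressed in seeds. It was made from the line CL37, which has the first 2 of these changes, and the fae1 line has only the mutation, which all 3 lines share. The comparison therefore covers both transgenes together, and CL37 at the same stage is set beside them. Plants grew under constant light, siliques of about 50 plants per line were frozen, the seeds were taken out of them, and mRNA libraries were made from 3 samples of each line and stage. The labels do not say whether the plants of a replicate were grown apart from those of the others, nor how many transgenic events a line stands for.

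FAE1 is the condensing enzyme that lengthens fatty acids in the seed, and fae1 seeds lack most of the very long chain fatty acids. The castor hydroxylase adds a hydroxyl group to fatty acids bound to phosphatidylcholine in the endoplasmic reticulum (ER), and PDAT enzymes move acyl groups from that phospholipid into triacylglycerol, the storage oil. Unusual fatty acids that stay in membrane lipids are known to disturb them, and plant cells meet such damage with detoxifying enzymes, chaperones and stress hormones.

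The 6 libraries held 11743932 to 19619039 gene counts in PDAT and 16278797 to 18789833 in fae1. The PDAT B library stood apart in 1 measure: 15.3% of its alignments were not unique, against 6.43% and 6.46% in PDAT A and C, and 4.05% to 5.32% in the fae1 libraries. Levels are given as CPM, reads of a gene relative to a library size scaled by TMM factors, and differences are edgeR log2 fold changes of PDAT over fae1 with a standard error (SE). A gene is called where the p of the quasi-likelihood test, adjusted by Benjamini-Hochberg over 18897 tested genes, was below 0.05. The seeds are bulk samples, in which fewer cells of a type and less RNA per cell cannot be told apart. Transcripts of the castor transgenes were not analysed here.

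The line labels were first set beside the counts. FAE1 itself (listed as KCS18, AT4G34520, chromosome 4, 16494205 to 16495842, plus strand) carries its mutation in both lines and cannot tell them apart. It had 674, 771 and 819 CPM in PDAT seeds, against 1126, 1084 and 1055 CPM in fae1 seeds, a log2 difference of -0.53 ± 0.29 that was not called (adjusted p = 0.269). AT4G29200, a gene annotated as related to beta-galactosidase and chosen for this check after its values were seen, had 0 to 4 reads in the 9 PDAT libraries of all stages, 0 to 2 reads in the 9 CL37 libraries and 56 to 107 reads in the 9 fae1 libraries. No library of the count files lay between these ranges. The PDAT and CL37 ranges overlap, so this gene cannot tell PDAT from CL37. Because it was chosen by its values, it is no independent check of the labels. The authors' deposited table of pooled FPKM values (fragments per kilobase, scaled to library size) gave the same gene 0.07 in PDAT, 2.2 in CL37 and 4.95 in fae1 at 11-12 days, where the CL37 value at 7-8 days was 0. The pooled CL37 and fae1 columns of that stage did not keep the lines apart as the count files did, and only the counts are used below.

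PDAT seeds differed from fae1 seeds mainly by higher transcripts. Of 18897 tested genes, 1249 were called (6.61%), 932 of them higher in PDAT (4.93%) and 317 lower (1.68%). At least 2-fold differences were found in 514 of the higher and 62 of the lower genes. The 3 PDAT libraries lay above all 3 fae1 libraries in 17.0% of all tested genes and below them in 16.3%, whether called or not. Among the called genes, the groups did not overlap in 923 of the 932 higher and 314 of the 317 lower genes. Groups without overlap therefore add little to a call below. The median log2 difference over all tested genes was 0.029, and 4561 genes had an unadjusted p below 0.05.

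The size of the call depended on single libraries. The count of called genes was 502 without PDAT A and 797 without PDAT C, and 577, 670 and 641 without fae1 A, B and C. Without PDAT B, the library with many non-unique alignments, it was 1454. With the share of non-unique alignments in the model, 711 genes were higher and 92 lower. Higher genes made up 74.6% of the calls in edgeR and 62.2% of those in DESeq2, which called 632 genes lower. The PDAT libraries also differed from the fae1 libraries in a developmental score described at the end. With that score in the model, 1826 genes were called higher and 1805 lower, so higher genes made up 50.3% of the calls. Each called gene described below kept its call without any 1 of the 6 libraries, except where the loss is stated.

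**Figure D1:**
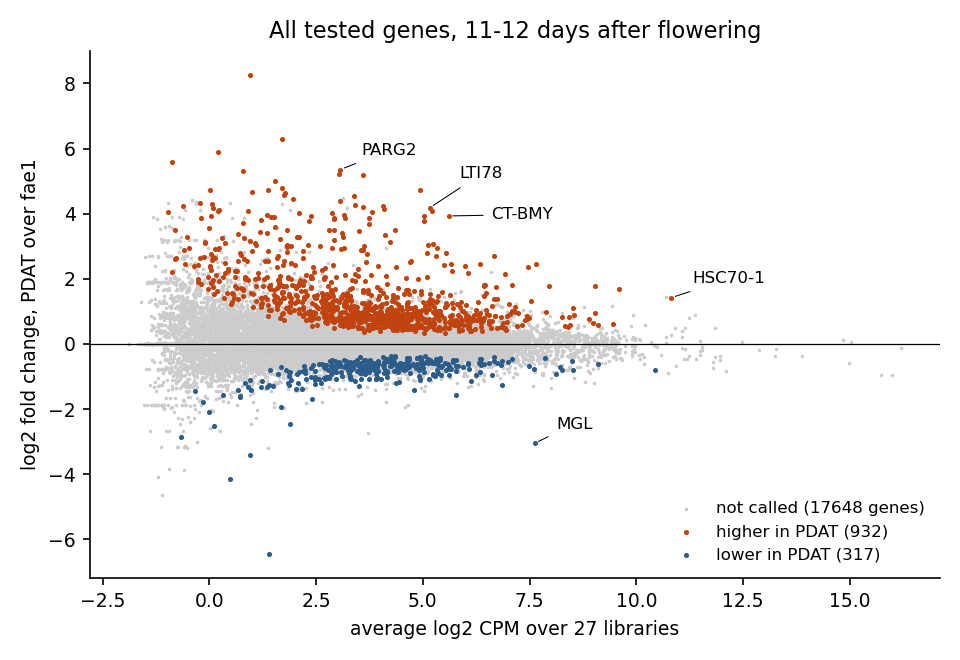
Each point is 1 of 18897 tested genes, with the average log2 CPM over the 27 libraries on the x axis and the log2 fold change of PDAT over fae1 at 11-12 days on the y axis. The 932 genes called higher in PDAT (orange) reach larger differences than most of the 317 called lower (blue), among which MGL stands out at a high level.

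The largest rises among called genes with an average log2 CPM of at least 2 included genes of stress responses. Only genes without overlap between the groups were taken for this ranking. PARG2 (AT2G31865, chromosome 2, 13546544 to 13549571, minus strand), whose enzyme removes poly(ADP-ribose) chains from proteins, had 18.9, 11.5 and 11.6 CPM in PDAT seeds, against 0.462, 0.322 and 0.226 CPM in fae1 seeds. The PDAT libraries were all above the fae1 libraries, with PDAT A highest, and the log2 difference was 5.36 ± 0.43 (adjusted p = 4.07e-08). LTI78 (AT5G52310, chromosome 5, 21240717 to 21243644, plus strand), also known as RD29A, a marker of drought, cold and abscisic acid responses, had 86.1, 66.5 and 67.3 CPM in PDAT seeds, against 6.74, 2.17 and 3.31 CPM in fae1 seeds. Its log2 difference was 4.18 ± 0.34 (adjusted p = 6.76e-08), and again the groups did not overlap. AT5G01380, for a homeodomain-like protein, had 14.9, 10.5 and 12.3 CPM in PDAT seeds, against 0.554, 0.0804 and 0.376 CPM in fae1 seeds, a log2 difference of 5.21 ± 0.49 (adjusted p = 4.19e-07). AT2G32210, for a small cysteine-rich membrane protein, differed by 4.72 ± 0.42, and AT2G27080, for a protein of the hydroxyproline-rich LEA family, by 4.08 ± 0.39. CML23, a calmodulin-like calcium sensor, differed by 4.55 ± 0.41. AT5G10695 and AT5G13880 differed by 4.22 ± 0.50 and 4.38 ± 0.67. The call of AT4G08555, with 12.3, 3.76 and 5.31 CPM in PDAT seeds, against 0, 0.241 and 0.752 CPM in fae1 seeds, was lost without PDAT A, fae1 A, fae1 B or fae1 C (adjusted p = 0.140, 0.127, 0.102 and 0.0611).

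The smallest p of all genes belonged to starch breakdown rather than to a stress list. CT-BMY (AT4G17090, chromosome 4, 9604962 to 9607402, minus strand), a plastid beta-amylase that releases maltose from starch, had 132, 101 and 128 CPM in PDAT seeds, against 8.04, 7.88 and 7.74 CPM in fae1 seeds. The 3 fae1 values lay close together and all 3 PDAT values were far above them, a log2 difference of 3.93 ± 0.19 (adjusted p = 5.29e-12). In CL37 seeds of the same stage it had 206, 229 and 155 CPM, and PDAT minus CL37 was -0.71 ± 0.16 (adjusted p = 0.0153).

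**Figure D2:**
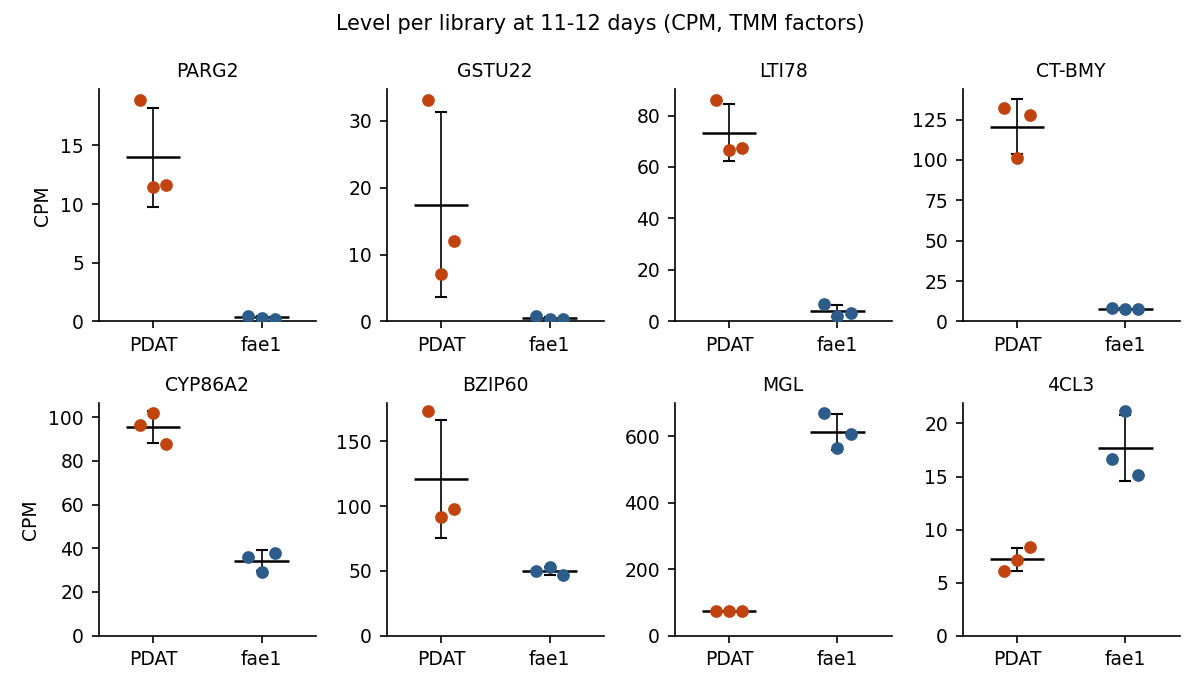
CPM in each library (points, A to C from left to right) of PDAT seeds and fae1 seeds at 11-12 days for 8 genes, with the mean (line) and SD (bars, n = 3). PARG2, GSTU22, LTI78, CT-BMY, CYP86A2 and BZIP60 have all PDAT points above all fae1 points, and MGL and 4CL3 have them below.

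The sequences before the annotated starts of 6 of these genes are shown, since stress genes are read through short motifs bound by known families of transcription factors. They are the 300 bases before the start of the gene on its own strand, from the RefSeq assembly TAIR10.1, for the largest rise in genes of that level (PARG2), the rise with the best known promoter (LTI78), 2 detoxification genes described below (GSTU7 and UGT73B4), the ER stress regulator BZIP60 and the largest fall at that level (MGL). Capitals mark matches of the motifs searched on both strands: the W-box of WRKY factors (TTGACC or TTGACT), the G-box of bZIP and bHLH factors (CACGTG), the core of the drought-responsive element bound by DREB factors (ACCGAC) and the core of TGA factor sites (TGACG).
PARG2 (chr2:13549572-13549871, minus strand): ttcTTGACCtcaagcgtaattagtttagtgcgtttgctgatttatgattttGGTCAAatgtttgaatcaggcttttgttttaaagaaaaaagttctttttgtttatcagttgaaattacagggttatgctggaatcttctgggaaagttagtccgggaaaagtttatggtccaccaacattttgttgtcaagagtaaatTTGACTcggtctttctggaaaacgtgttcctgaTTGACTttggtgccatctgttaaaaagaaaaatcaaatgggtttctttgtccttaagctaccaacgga
LTI78 (chr5:21240417-21240716, plus strand): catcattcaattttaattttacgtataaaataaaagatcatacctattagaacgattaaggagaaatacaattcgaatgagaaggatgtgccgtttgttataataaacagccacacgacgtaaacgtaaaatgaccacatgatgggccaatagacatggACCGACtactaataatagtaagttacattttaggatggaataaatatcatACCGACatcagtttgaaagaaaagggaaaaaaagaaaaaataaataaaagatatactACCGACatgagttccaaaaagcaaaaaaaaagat
GSTU7 (chr2:12618900-12619199, minus strand): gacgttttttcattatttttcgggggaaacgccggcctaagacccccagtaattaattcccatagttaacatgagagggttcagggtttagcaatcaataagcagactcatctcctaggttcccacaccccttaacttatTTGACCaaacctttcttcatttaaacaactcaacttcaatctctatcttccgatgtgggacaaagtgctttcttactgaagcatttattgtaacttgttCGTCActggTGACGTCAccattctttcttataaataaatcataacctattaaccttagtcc
UGT73B4 (chr2:6761335-6761634, plus strand): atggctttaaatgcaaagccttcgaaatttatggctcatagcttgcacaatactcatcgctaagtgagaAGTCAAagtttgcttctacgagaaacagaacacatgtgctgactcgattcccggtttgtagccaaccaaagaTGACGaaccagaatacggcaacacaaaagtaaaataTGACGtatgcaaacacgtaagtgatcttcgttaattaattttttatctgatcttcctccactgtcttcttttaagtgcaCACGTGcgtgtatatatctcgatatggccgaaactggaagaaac
BZIP60 (chr1:16137464-16137763, minus strand): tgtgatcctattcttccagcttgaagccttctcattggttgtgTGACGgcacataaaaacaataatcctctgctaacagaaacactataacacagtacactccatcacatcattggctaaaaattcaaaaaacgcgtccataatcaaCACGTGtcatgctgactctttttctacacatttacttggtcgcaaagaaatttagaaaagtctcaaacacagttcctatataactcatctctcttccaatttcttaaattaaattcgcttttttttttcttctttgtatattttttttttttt
MGL (chr1:24028530-24028829, plus strand): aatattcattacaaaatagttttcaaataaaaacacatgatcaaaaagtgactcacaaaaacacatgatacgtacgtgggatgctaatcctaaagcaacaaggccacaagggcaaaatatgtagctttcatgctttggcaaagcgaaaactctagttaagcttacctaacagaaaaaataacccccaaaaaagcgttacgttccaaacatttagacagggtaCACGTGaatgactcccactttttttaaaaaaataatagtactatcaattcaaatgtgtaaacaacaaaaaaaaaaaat

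PARG2 had 4 W-box matches, and LTI78 had 3 matches of the drought-responsive core, ending 136, 86 and 29 bases before its start. GSTU7 had 3 matches of the TGA core and 1 W-box, where 2 of the TGA matches overlap on opposite strands. UGT73B4 had 2 matches of the TGA core, 1 W-box and 1 G-box, and its window lies inside the annotated span of its neighbour UGT73B5. The windows of the detoxification genes GSTU22, UGT73B5 and GSTU19, not shown, had 2 matches each, against 4 each in GSTU7 and UGT73B4. BZIP60 had 1 G-box and 1 TGA core, and MGL had 1 G-box. A W-box stood in 34.2% of the 926 called-higher genes with a window, in 32.4% of the 315 called-lower genes and in 31.3% of all 18561 tested genes with one. For the TGA core these shares were 24.2%, 22.5% and 21.9%, for the G-box 9.83%, 8.25% and 8.36%, and for the drought-responsive core 7.78%, 3.49% and 6.09%. An ER stress motif that contains the TGA core (TGACGTGG or TGACGTGA) stood in 2.27%, 2.22% and 2.31%. The mitochondrial dysfunction motif stood in 18 of the 926 called-higher genes (1.94%), in 0.635% of the called-lower genes and in 0.997% of all. An ERSE-like motif stood in 0.432%, 0.635% and 0.420%.

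Of 34 tested transcription factors of general stress responses, 14 were called higher in PDAT (41.2%, against 4.93% of all tested genes) and none lower, and 20 did not pass the test. The median log2 difference was 1.13, and 32 values were positive. RHL41 (also ZAT12), a zinc finger factor of oxidative stress, had 39.0, 27.6 and 26.5 CPM in PDAT seeds, against 4.43, 3.30 and 2.93 CPM in fae1 seeds, a log2 difference of 3.13 ± 0.35 (adjusted p = 4.76e-06). NAC102 had 16.6, 12.8 and 14.9 CPM in PDAT seeds, against 3.97, 2.81 and 3.31 CPM in fae1 seeds, a difference of 2.13 ± 0.22 (adjusted p = 1.41e-06). The libraries of PDAT lay above those of fae1 in both. WRKY48 differed by 3.23 ± 0.48, WRKY25 by 4.59 ± 0.73, ATAF2 by 1.54 ± 0.24 and the ethylene response factors ERF2 and ERF104 by 2.86 ± 0.45 and 2.72 ± 0.52. PMZ (also SAP12), a zinc finger protein, had 24.4, 5.31 and 6.17 CPM in PDAT seeds, against 1.02, 0.322 and 0.677 CPM in fae1 seeds, with PDAT A far above the other 2 PDAT libraries, and a difference of 4.13 ± 0.77 (adjusted p = 0.00172). The call of WRKY33, with 2.68, 2.75 and 1.91 CPM in PDAT seeds, against 0.924, 0.241 and 0.601 CPM in fae1 seeds, was lost without PDAT A, PDAT B, fae1 B or fae1 C (adjusted p = 0.0926, 0.0528, 0.119 and 0.0845). The list counted 9 to 13 higher members when 1 library was left out, 9 of them without fae1 B, and 13 without PDAT B.

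Of 39 tested detoxification genes, 16 were called higher (41.0%, against 4.93% of all tested genes) and none lower, with a median log2 difference of 0.66. GSTU22, a tau class glutathione S-transferase that joins glutathione to reactive compounds, had 33.1, 7.05 and 12.1 CPM in PDAT seeds, against 0.739, 0.402 and 0.301 CPM in fae1 seeds. PDAT A was again highest, all PDAT libraries were above all fae1 libraries, and the log2 difference was 5.17 ± 0.67 (adjusted p = 2.90e-05). GSTU7 had 46.0, 20.2 and 26.1 CPM in PDAT seeds, against 7.57, 8.85 and 11.5 CPM in fae1 seeds, a difference of 1.71 ± 0.26 (adjusted p = 1.45e-04), and the phi class enzyme GSTF8 had 21.4, 17.59 and 19.6 CPM in PDAT seeds, against 6.28, 6.76 and 6.47 CPM in fae1 seeds, a difference of 1.58 ± 0.29 (adjusted p = 0.00136). The glucosyltransferases UGT73B4 and UGT74E2, which attach sugar to small molecules, differed by 4.23 ± 0.56 and 3.83 ± 0.60. UGT73B5 differed by 3.002 ± 0.45, but its annotated span covers UGT73B4, so reads of this pair may be shared. OPR2, a 12-oxophytodienoate reductase of the class that reduces reactive lipid products, differed by 1.53 ± 0.32, and CYP81D8, a cytochrome P450, by 2.88 ± 0.57. GSTU25 had 5.04, 1.19 and 2.72 CPM in PDAT seeds, against 0.185, 0 and 0.150 CPM in fae1 seeds, a fae1 library without a read among them. Members not called ran down to a log2 difference of -1.88. Counts within gene families such as the tau class may share reads between near-identical copies. The list counted 10 to 16 higher members with 1 library left out, 10 of them without PDAT A and 16 without PDAT B.

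Regulators of ER stress made up 4 of the 6 calls in the list of unfolded protein response and ER chaperone genes. Of 41 tested members, 6 were called higher (14.6%, against 4.93% of all tested genes) and none lower, with a median log2 difference of 0.15. BZIP60 (AT1G42990, chromosome 1, 16135723 to 16137463, minus strand), the transcription factor whose RNA is spliced when unfolded proteins build up in the ER, had 173, 91.9 and 98.1 CPM in PDAT seeds, against 50.2, 52.7 and 46.9 CPM in fae1 seeds. PDAT A was highest, the groups did not overlap, and the log2 difference was 1.28 ± 0.20 (adjusted p = 2.47e-04). The counts do not tell spliced from unspliced BZIP60 RNA. NAC062, a membrane-bound factor that acts with the bZIP factors, had 70.9, 64.0 and 74.2 CPM in PDAT seeds, against 33.5, 32.1 and 29.9 CPM in fae1 seeds, a difference of 1.13 ± 0.16 (adjusted p = 9.89e-05). ATERDJ3A, a J-domain cochaperone of the ER, had 30.3, 34.4 and 34.3 CPM in PDAT seeds, against 18.4, 15.4 and 17.2 CPM in fae1 seeds, a difference of 0.96 ± 0.19 (adjusted p = 0.00303). The remaining calls were lost without single libraries: BZIP28 (difference 0.71 ± 0.17) without PDAT C, fae1 B or fae1 C (adjusted p = 0.0549, 0.0618 and 0.0588), NAC103 (2.56 ± 0.63) without PDAT A, fae1 A or fae1 C (adjusted p = 0.131, 0.0600 and 0.0833), and the ER sugar nucleotide transporter UTR1 (0.71 ± 0.17) without PDAT A, fae1 A or fae1 B (adjusted p = 0.116, 0.0611 and 0.0517). BIP3, an ER chaperone gene induced by stress, had 0.322, 0.0916 and 0.123 CPM in PDAT seeds, against 0, 0 and 0 CPM in fae1 seeds, too few reads for a fold. The list had 4 to 6 higher members with 1 library left out, and 6 without PDAT B. With the developmental score described at the end in the model, 2 members were called higher and 3 lower. That fit called 1826 of all 18897 tested genes higher and 1805 lower. None of 25 proteasome genes and none of 7 autophagy genes was called at adjusted p below 0.05, with median log2 differences of 0.15 and 0.40.

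The heat shock list held 3 heat shock factors among its 6 calls. Of 19 tested members, 6 were called higher (31.6%, against 4.93% of all tested genes) and none lower, with a median log2 difference of 0.57. DREB2A, a factor of drought and heat responses, had 10.6, 8.06 and 6.17 CPM in PDAT seeds, against 1.02, 0.965 and 1.203 CPM in fae1 seeds, and HSFA3, a heat shock factor that DREB2A is known to induce, had 1.501, 1.65 and 1.36 CPM in PDAT seeds, against 0.185, 0 and 0.301 CPM in fae1 seeds. All PDAT libraries lay above all fae1 libraries for both, with differences of 2.93 ± 0.41 (adjusted p = 6.47e-05) and 3.12 ± 0.60 (adjusted p = 0.00204). AT5G12030, for a small heat shock protein, had 6.32, 0.550 and 0.864 CPM in PDAT seeds, against 0.554, 0.161 and 0.150 CPM in fae1 seeds. Its groups overlapped, and its call was lost without PDAT A, fae1 B or fae1 C (adjusted p = 0.373, 0.0977 and 0.104). The call of HSFB2A (difference 1.25 ± 0.31) was lost without PDAT A, PDAT C, fae1 A or fae1 B (adjusted p = 0.0540, 0.0504, 0.0643 and 0.0866), that of MBF1C (2.08 ± 0.57) without PDAT B, PDAT C, fae1 A or fae1 B (adjusted p = 0.0774, 0.0696, 0.154 and 0.104), and that of HSFA4A (listed as HSF A4A, 1.48 ± 0.42) without PDAT A, PDAT C, fae1 A, fae1 B or fae1 C (adjusted p = 0.144, 0.0995, 0.0835, 0.0607 and 0.155). The list had 2 to 5 higher members with 1 library left out, with the 2 seen without fae1 B. It had 4 higher and 2 lower with the developmental score in the model, where 1826 of all 18897 tested genes were higher and 1805 lower.

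In the jasmonate list 4 of 22 tested members were called higher, against 4.93% of all tested genes, and none lower, with a median log2 difference of 0.50. They were the synthesis gene AOC3, an allene oxide cyclase with 16.4, 18.3 and 18.7 CPM in PDAT seeds, against 3.14, 3.22 and 3.01 CPM in fae1 seeds, the central factor MYC2 with 12.1, 11.3 and 12.7 CPM in PDAT seeds, against 1.85, 2.25 and 3.61 CPM in fae1 seeds, the repressor JAZ10 with 11.7, 8.24 and 8.46 CPM in PDAT seeds, against 4.34, 3.06 and 3.31 CPM in fae1 seeds, and CYP94C1, which inactivates the hormone, with 82.4, 52.9 and 63.5 CPM in PDAT seeds, against 28.9, 36.4 and 34.4 CPM in fae1 seeds. The groups did not overlap for any of the 4, with differences of 2.51 ± 0.44, 2.21 ± 0.27, 1.40 ± 0.22 and 0.995 ± 0.16. The 4 jasmonate genes stayed called with any 1 library left out. Of 21 abscisic acid genes, 3 were called higher (14.3%) and none lower, and the count was 1 without fae1 B. CYP707A3, which breaks the hormone down, had 2.79, 2.93 and 2.28 CPM in PDAT seeds, against 0.185, 0.0804 and 0.451 CPM in fae1 seeds, a difference of 3.39 ± 0.66 (adjusted p = 0.00237). The calls of SNRK2.3 (0.81 ± 0.19), a kinase of the signalling chain, and ABI1 (0.56 ± 0.15), the phosphatase that opposes it, were lost without PDAT A, fae1 A or fae1 B (adjusted p = 0.0677, 0.0550 and 0.0527) and without PDAT A, PDAT B, fae1 A, fae1 B or fae1 C (adjusted p = 0.0672, 0.110, 0.0530, 0.0931 and 0.106). In the calcium list of 6 tested genes, TCH2, a calmodulin-like protein known from responses to touch, had 87.9, 50.3 and 70.6 CPM in PDAT seeds, against 7.48, 11.9 and 10.8 CPM in fae1 seeds, a difference of 2.79 ± 0.34 (adjusted p = 1.11e-05), and was the only call.

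**Figure D3:**
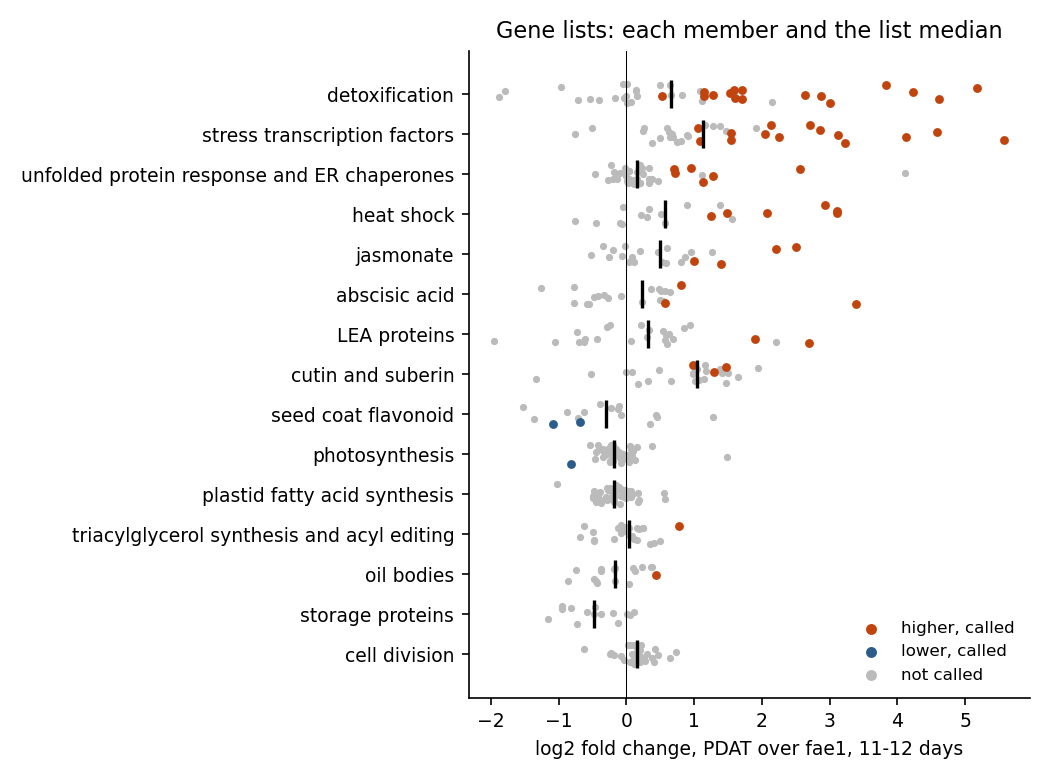
Log2 fold change of PDAT over fae1 at 11-12 days for each tested member of 15 gene lists (points, orange called higher, blue called lower, grey not called) with the list median (black line). Detoxification and stress transcription factors hold 16 and 14 called members, while plastid fatty acid synthesis, storage proteins and cell division hold none.

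Genes of oil synthesis, the pathway in which the transgenes act, had few calls. In plastid fatty acid synthesis none of 44 genes was called, with a median log2 difference of -0.18 and 10 positive values. BCCP2, a subunit of acetyl-CoA carboxylase, had 244, 327 and 378 CPM in PDAT seeds, against 397, 476 and 449.9 CPM in fae1 seeds, a difference of -0.48 ± 0.19 (adjusted p = 0.129). WRI1, the factor that drives this pathway, had 175, 157 and 212 CPM in PDAT seeds, against 208, 263 and 211 CPM in fae1 seeds, a difference of -0.33 ± 0.16 (adjusted p = 0.209). In triacylglycerol synthesis and acyl editing 1 of 25 genes was called higher and none lower, near the 4.93% of all tested genes. This was AAPT2, whose enzyme makes phosphatidylcholine and phosphatidylethanolamine from diacylglycerol, with 37.4, 41.0 and 30.6 CPM in PDAT seeds, against 21.2, 21.8 and 20.5 CPM in fae1 seeds, a difference of 0.78 ± 0.15 (adjusted p = 0.00181). The Arabidopsis gene of the same enzyme as the second transgene, PDAT1 (listed as PDAT, AT5G13640, chromosome 5, 4392937 to 4397541, plus strand), had 9.22, 9.89 and 8.95 CPM in PDAT seeds, against 9.14, 9.01 and 9.25 CPM in fae1 seeds, a difference of 0.033 ± 0.13 (adjusted p = 0.906). PDAT2 (AT3G44830) had 15.65, 21.0 and 19.0 CPM in PDAT seeds, against 37.1, 23.5 and 25.3 CPM in fae1 seeds, a difference of -0.62 ± 0.38, and DGAT1 (listed as TAG1), the other main enzyme of the last step, had 103, 103 and 99.9 CPM in PDAT seeds, against 129, 99.3 and 104 CPM in fae1 seeds, a difference of -0.12 ± 0.18. Neither passed the test (adjusted p = 0.310 and 0.717). ROD1, which exchanges headgroups between diacylglycerol and phosphatidylcholine, had 215, 229 and 277 CPM in PDAT seeds, against 171, 208 and 189 CPM in fae1 seeds, a difference of 0.34 ± 0.15 (adjusted p = 0.173).

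The desaturases of the ER were not called. FAD2, which desaturates oleate and of which the castor hydroxylase is a relative, had 5732, 5607 and 7396 CPM in PDAT seeds, against 4356, 4595 and 4319 CPM in fae1 seeds, a difference of 0.50 ± 0.21 (adjusted p = 0.157). All PDAT values were above all fae1 values, as in 17.0% of all tested genes. FAD3, which makes linolenate, had 3161, 2992 and 3825 CPM in PDAT seeds, against 2849, 2738 and 3025 CPM in fae1 seeds, with overlapping groups and a difference of 0.21 ± 0.43 (adjusted p = 0.789). Of 13 desaturation and elongation genes 1 was called higher and 1 lower (7.69% each, against 4.93% and 1.68% of all tested genes). KCS1, an elongase of surface waxes, had 41.1, 36.6 and 29.0 CPM in PDAT seeds, against 13.4, 11.7 and 13.5 CPM in fae1 seeds, a difference of 1.47 ± 0.19 (adjusted p = 1.88e-05), and the call of the plastid desaturase gene FAD8 (-0.67 ± 0.20) was lost without PDAT A, PDAT B, PDAT C, fae1 A, fae1 B or fae1 C (adjusted p = 0.119, 0.0680, 0.135, 0.169, 0.0967 and 0.0753).

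Genes of cutin and suberin, the lipid polyesters of the seed coat and epidermis, had mostly positive differences. Of 25 tested members, 23 had a positive log2 difference, the median was 1.05, and 3 were called higher (12.0%, against 4.93% of all tested genes) and none lower. CYP86A2 (AT4G00360, chromosome 4, 160643 to 163023, plus strand), a fatty acid hydroxylase of cutin synthesis, had 96.5, 102 and 87.7 CPM in PDAT seeds, against 36.1, 29.1 and 37.9 CPM in fae1 seeds. The groups were far apart, with a difference of 1.47 ± 0.14 (adjusted p = 4.19e-07). LACS2, an acyl-CoA synthetase of the same pathway, had 80.7, 87.3 and 54.8 CPM in PDAT seeds, against 32.3, 38.7 and 41.0 CPM in fae1 seeds, a difference of 0.99 ± 0.20 (adjusted p = 0.00284). CYP86B1, which hydroxylates very long chain fatty acids for suberin, had 124, 105 and 67.4 CPM in PDAT seeds, against 40.4, 37.2 and 42.9 CPM in fae1 seeds, a difference of 1.297 ± 0.30, and its call was lost without PDAT A or fae1 B (adjusted p = 0.0765 and 0.0526). A fit of the 6 libraries alone called 14 members higher. The other sets of seed coat genes did not share this: none of 20 mucilage genes was called, with a median of 0.16. Of 16 flavonoid genes 2 were called lower (12.5%, against 1.68% of all tested genes), with a median of -0.31. These differences between lists were not tested.

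Summed storage protein levels were lower in the PDAT libraries. These CPM are scaled by TMM factors and are not shares of all reads. No single gene of the storage protein list passed the test. The summed level of its 14 genes was 472260, 424270 and 461210 CPM in PDAT A, B and C, against 727250, 562030 and 648140 CPM in fae1 A, B and C, so every PDAT library lay below every fae1 library. The median log2 difference was -0.47, and none was called at adjusted p below 0.05 in edgeR or in DESeq2, while an edgeR fit of the 6 libraries alone called 6 lower. CRU3, a cruciferin, had 78802, 91951 and 88927 CPM in PDAT seeds, against 213650, 132680 and 154710 CPM in fae1 seeds, a difference of -0.95 ± 0.70 (adjusted p = 0.410), and SESA3, an albumin, had 139350, 102410 and 131780 CPM in PDAT seeds, against 130510, 130790 and 147700 CPM in fae1 seeds, with overlapping groups and a difference of -0.13 ± 0.55. Of 17 oil body genes 1 was called higher (5.88%), AT5G16550 (0.44 ± 0.13), a call lost without PDAT A, PDAT B, PDAT C, fae1 A, fae1 B or fae1 C (adjusted p = 0.132, 0.0941, 0.0750, 0.137, 0.121 and 0.113). The summed oil body levels overlapped, with 72101, 56649 and 62569 CPM in PDAT A, B and C, against 85914, 68389 and 78023 CPM in fae1 A, B and C. The main oleosin OLEO1 differed by -0.38 ± 0.46 (adjusted p = 0.633). The 24 LEA genes, which protect late embryos from drying, had 2 members called higher (8.33%, against 4.93% of all tested genes). The dehydrin LTI30 had 269, 94.5 and 111 CPM in PDAT seeds, against 39.2, 11.3 and 22.8 CPM in fae1 seeds, a difference of 2.70 ± 0.62 whose call was lost without PDAT A, fae1 B or fae1 C (adjusted p = 0.0844, 0.0615 and 0.0544). The call of SAG21 (1.90 ± 0.52) was lost without PDAT A, fae1 B or fae1 C (adjusted p = 0.198, 0.0991 and 0.126). Among 22 seed regulators the only call was WRI4 (1.53 ± 0.42), lost without PDAT A, PDAT C, fae1 A or fae1 B (adjusted p = 0.123, 0.0623, 0.163 and 0.106), and ABI3, a main regulator of maturation, differed by -0.67 ± 0.34 (adjusted p = 0.227). In sugar supply the exporter gene SAG29 was higher by 0.86 ± 0.25, a call lost without PDAT A, PDAT B, fae1 A, fae1 B or fae1 C (adjusted p = 0.199, 0.0841, 0.176, 0.0559 and 0.131). In beta-oxidation and the glyoxylate cycle PCK1, of gluconeogenesis, was higher by 0.60 ± 0.16. The PCK1 call was lost without PDAT A, PDAT B, fae1 A, fae1 B or fae1 C (adjusted p = 0.103, 0.0581, 0.0783, 0.0610 and 0.111). The last 3 lists and the oil body list each held 1 higher call. These were 4.55% of seed regulators, 7.69% of sugar supply, 4.76% of beta-oxidation and 5.88% of oil body genes, against 4.93% of all tested genes.

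Fewer genes fell than rose, and 1 of them had both a high level and a large difference. MGL (AT1G64660, chromosome 1, 24028830 to 24030780, plus strand), methionine gamma-lyase, which breaks methionine down and feeds isoleucine synthesis, had 73.1, 74.8 and 74.6 CPM in PDAT seeds, against 669, 564 and 606 CPM in fae1 seeds. The 3 PDAT libraries agreed closely and lay far below every fae1 library, with a difference of -3.05 ± 0.29 (adjusted p = 4.19e-07). Of the other methionine genes, SAM1, which makes S-adenosylmethionine, had 555, 773 and 591 CPM in PDAT seeds, against 381, 309.6 and 383 CPM in fae1 seeds, a difference of 0.84 ± 0.16 (adjusted p = 0.00181), and the call of the methionine synthase gene MS2 (-0.98 ± 0.29) was lost without PDAT A, PDAT C, fae1 A, fae1 B or fae1 C (adjusted p = 0.204, 0.114, 0.137, 0.0589 and 0.129). Enzymes of phenylpropanoid and flavonoid synthesis were among the calls. The 4-coumarate:CoA ligase gene 4CL3 had 6.11, 7.15 and 8.33 CPM in PDAT seeds, against 16.6, 21.2 and 15.2 CPM in fae1 seeds, a difference of -1.28 ± 0.17 (adjusted p = 2.58e-05), and TT5, the chalcone isomerase gene, had 22.6, 17.7 and 19.4 CPM in PDAT seeds, against 43.6, 41.5 and 40.9 CPM in fae1 seeds, a difference of -1.08 ± 0.20 (adjusted p = 0.00121). The groups did not overlap in either. The related calls of 4CL1 (-1.25 ± 0.28) and the flavonol synthase gene FLS1 (-0.68 ± 0.21) were lost without PDAT A (adjusted p = 0.0649) and without PDAT A, PDAT B, PDAT C, fae1 A, fae1 B or fae1 C (adjusted p = 0.155, 0.112, 0.0678, 0.0957, 0.131 and 0.118).

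The remaining large falls had no shared list. AT1G07450, for a Rossmann-fold oxidoreductase, had 3.75, 3.02 and 2.84 CPM in PDAT seeds, against 10.5, 7.72 and 12.8 CPM in fae1 seeds, a difference of -1.70 ± 0.33 (adjusted p = 0.00249). DCL2, a dicer of small RNA pathways, had 2.79, 3.39 and 2.84 CPM in PDAT seeds, against 8.41, 5.87 and 7.07 CPM in fae1 seeds, a difference of -1.24 ± 0.27 (adjusted p = 0.00640). AT5G06790 and the glutamate receptor gene GLR1.4 differed by -1.39 ± 0.29 and -1.19 ± 0.23. GLT1, for the NADH-dependent glutamate synthase, had 19.3, 34.3 and 21.9 CPM in PDAT seeds, against 114, 62.2 and 48.0 CPM in fae1 seeds, with fae1 A far above the other 2 fae1 libraries, and its call was lost without PDAT A or fae1 A (adjusted p = 0.0745 and 0.0975). The calls of AT1G21590 (-1.40 ± 0.34), the second acetyl-CoA carboxylase gene ACC2 (-1.37 ± 0.40), AT1G15030 (-1.19 ± 0.27) and the biotin synthesis gene BIO1 (-1.19 ± 0.26) were lost without PDAT A, PDAT C or fae1 A (adjusted p = 0.105, 0.0557 and 0.0696), without PDAT A, PDAT C, fae1 A, fae1 B or fae1 C (adjusted p = 0.197, 0.124, 0.172, 0.0535 and 0.0977), without fae1 A (adjusted p = 0.0658) and without PDAT A (adjusted p = 0.0504). Of 50 photosynthesis genes 1 was called, PRK, of the Calvin cycle, with 144, 223 and 212 CPM in PDAT seeds, against 345, 353 and 319 CPM in fae1 seeds, and it was lost without PDAT A, PDAT C, fae1 A, fae1 B or fae1 C (adjusted p = 0.202, 0.0629, 0.108, 0.0961 and 0.0705).

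Marker lists of other tissues held 1 call. The 7 silique wall genes, which would mark tissue outside the seed, summed to 91.3, 127 and 103 CPM in PDAT and 116, 114 and 111 CPM in fae1, with overlapping groups and no call. The 8 endosperm genes summed to 2458, 3230 and 3597 CPM in PDAT and 2573, 4305 and 3284 CPM in fae1. Of these 8, 1 was called lower (12.5%, against 1.68% of all tested genes). This was ICE1, an endosperm regulator (-0.44 ± 0.12). The ICE1 call was lost without PDAT A, PDAT C, fae1 A, fae1 B or fae1 C (adjusted p = 0.166, 0.0554, 0.0606, 0.121 and 0.0645). The 10 embryo patterning genes had no call, and their sums were 161, 237 and 202 CPM in PDAT and 334, 283 and 274 CPM in fae1, without overlap, and their part in the results was not tested. The 33 cell division genes had no call, with a median log2 difference of 0.15.

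Set beside CL37, the line with the hydroxylase alone, PDAT had lower levels of many genes of the stress lists. Against CL37, 500 genes were called (2.65%), 18 higher in PDAT (0.0953%) and 482 lower (2.55%), and CL37 against fae1 had 2942 calls (15.6%), 1990 higher in CL37 (10.5%) and 952 lower (5.04%). Both share libraries with PDAT against fae1, so their values are given side by side and not compared. In the detoxification list, 16 of 39 genes were higher in PDAT than in fae1 and 21 were lower in PDAT than in CL37, with a median log2 difference against CL37 of -1.46. These are separate counts, which need not be the same genes. In the list of stress transcription factors the counts were 14 and 17 of 34, with a median of -1.197 against CL37. In the jasmonate list none of 22 was called against CL37, with a median of 0.13, and in the cutin and suberin list none of 25, with a median of 0.41.

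The next 4 genes were chosen for their difference from CL37, which is a description. GSTF8 had 21.4, 17.59 and 19.6 CPM in PDAT, against 184, 222 and 149 CPM in CL37 and 6.28, 6.76 and 6.47 CPM in fae1. PDAT minus CL37 was -3.24 ± 0.29 (adjusted p = 8.17e-07). GSTU19 had 431, 278 and 291 CPM in PDAT, 1284, 1186 and 1029 CPM in CL37 and 222, 234 and 237 CPM in fae1, which gave -1.81 ± 0.16 against CL37 (adjusted p = 8.17e-07). Its call against fae1 (0.53 ± 0.16) was lost without PDAT A, fae1 A, fae1 B or fae1 C (adjusted p = 0.343, 0.168, 0.110 and 0.107). AT1G19020 had 1.82, 0.824 and 1.42 CPM in PDAT, 74.2, 48.1 and 53.9 CPM in CL37 and 0.0924, 0.161 and 0.0752 CPM in fae1, and WRKY33 had 55.6, 48.1 and 39.1 CPM in CL37, so that PDAT minus CL37 was -5.43 ± 0.47 and -4.29 ± 0.42. The call of AT1G19020 against fae1 (3.50 ± 0.84) was lost without PDAT A, fae1 A or fae1 C (adjusted p = 0.0606, 0.0611 and 0.0678). Genes named for their rise over fae1 gave other values: CML23, with 82.0, 39.5 and 35.5 CPM in CL37, was at -0.91 ± 0.32 against CL37 (adjusted p = 0.179). MYC2, with 12.5, 13.8 and 9.63 CPM in CL37, and CYP86A2, with 64.3, 74.3 and 76.4 CPM, were not called between PDAT and CL37 (0.0076 ± 0.25 and 0.41 ± 0.14, adjusted p = 1 and 0.153). MGL had 44.9, 109 and 129.6 CPM in CL37, and PDAT minus CL37 was -0.35 ± 0.27 (adjusted p = 0.753). Of the 4 highest-ranked genes above CL37, none kept that call with every library: BOR4 (1.94 ± 0.47), AT1G21500 (0.91 ± 0.22), JLO (0.98 ± 0.24) and AT5G40316 (2.85 ± 0.61) were each lost without PDAT B (adjusted p = 0.154, 0.0897, 0.225 and 0.0518) and without CL37 B (adjusted p = 0.127, 0.0873, 0.149 and 0.0752). Without CL37 A, BOR4, AT1G21500 and JLO were lost too (adjusted p = 0.0787, 0.0864 and 0.0608), as were BOR4 without CL37 C (adjusted p = 0.0635) and AT1G21500 without PDAT C (adjusted p = 0.112). The count of 500 was 278 without CL37 A, 311 without PDAT B and 291 without PDAT C.

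The difference between PDAT and fae1 was not the same at the earlier stages. At 9-10 days 17 genes were called (0.0900%), 12 higher in PDAT (0.0635%) and 5 lower (0.0265%). At 7-8 days 1632 were called (8.64%), 901 higher in PDAT (4.77%) and 731 lower (3.87%). The change of the difference between 7-8 and 11-12 days was itself tested and called in 1444 genes (7.64%), 894 towards higher in PDAT (4.73%) and 550 towards lower (2.91%). CT-BMY had log2 differences of 0.21 at 7-8, 0.90 at 9-10 and 3.93 at 11-12 days, a change of 3.73 ± 0.25 (adjusted p = 8.70e-09). LTI78 had -0.64, 1.29 and 4.18, a change of 4.82 ± 0.57 (adjusted p = 8.26e-05), and GSTU22 had -0.015, 0.78 and 5.17 (adjusted p of the change = 0.0239). MGL was called lower at all 3 stages, with -2.07, -2.57 and -3.05 (adjusted p = 3.84e-04, 5.87e-05 and 4.19e-07), and its change was not called (adjusted p = 0.102). At 7-8 days 1 fae1 library, A, stood apart from the other 2, with a developmental score, explained below, of -1.92 against -3.63 and -3.37. Without it 5025 genes were called for the change, and without any other library of the 4 groups the count ran from 354 (without PDAT A of 11-12 days) to 2869 (without PDAT B of 11-12 days).

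The 6 libraries also differed in a score of genes that change with age in CL37, called the developmental score. For it, 500 genes that rose and 500 that fell most clearly in CL37 between 7-8 and 11-12 days were taken, and the mean log2 CPM of the falling set was subtracted from that of the rising set. It was 1.804, 0.80 and 1.32 in PDAT A, B and C, against 0.0016, -0.16 and 0.35 in fae1 A, B and C, so all PDAT libraries lay above all fae1 libraries, by 1.25 on average. PDAT A, the highest library of PARG2, GSTU22, PMZ and BZIP60, also had the highest score of the 6. For AOC3 and ATERDJ3A, PDAT A was the lowest of the PDAT libraries. A link between the score and the levels of these genes was not tested. CL37 carries the same hydroxylase as PDAT, so in this score a more advanced age and a response to the hydroxylase cannot be told apart. Of 33 cell division genes, 26 fell late in CL37, while 27 had a positive log2 difference of PDAT minus fae1, with no call. Storage protein genes, of which 1 of 14 fell late in CL37 and none rose, had the negative median of -0.47 given above. Other lists had both falls in CL37 and mostly negative differences. Of 50 photosynthesis genes, 49 fell late in CL37 and 15 had a positive difference, with a median of -0.18. Of 44 plastid fatty acid synthesis genes, 26 fell and 1 rose late in CL37, and 10 had a positive difference. Several lists with calls higher in PDAT held many genes that rose late in CL37, where 16.1% of all tested genes rose. Among 34 stress transcription factors, 27 rose and 0 fell. The 39 detoxification genes had 26 that rose and 2 that fell. For 19 heat shock genes the counts were 15 and 0, for 24 LEA genes 19 and 2. Among 25 cutin and suberin genes, 15 rose and 1 fell. In the jasmonate list, 5 of 22 rose and 4 fell. What all these lists say about age was not tested.

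**Figure D4:**
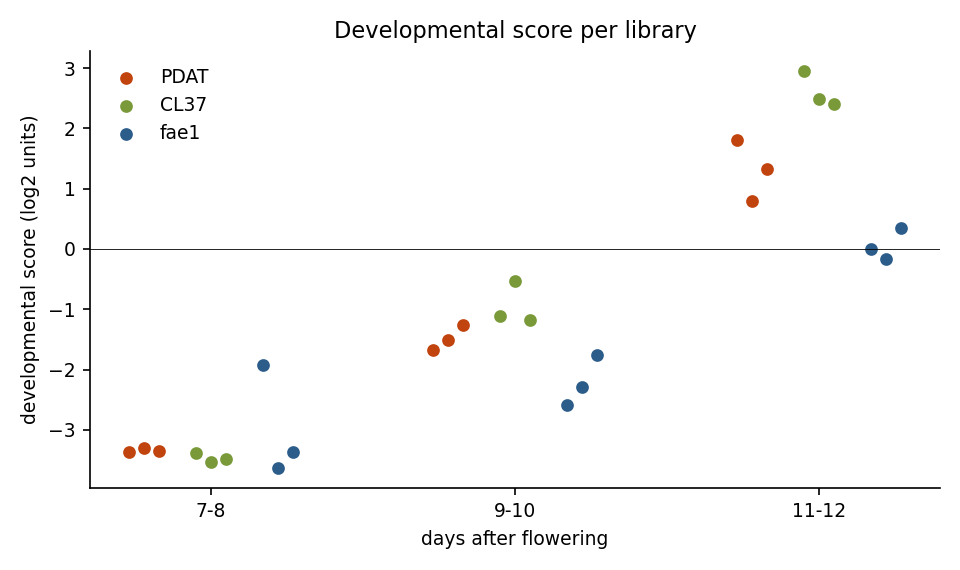
Developmental score (mean log2 CPM of 500 rising minus 500 falling genes, both chosen in CL37) of each library of PDAT, CL37 and fae1 by days after flowering. At 11-12 days the 3 PDAT points lie between 0.80 and 1.804, above the fae1 points at -0.16 to 0.35 and below the CL37 points, which the choice of genes favours.

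The called genes were then set beside their late change in CL37, from 9-10 to 11-12 days, which shares no library with PDAT against fae1. Of the 932 genes higher in PDAT, 665 rose in CL37 over this step (71.4%) and 28 fell (3.004%), where 31.2% of all tested genes were called, 16.1% rising and 15.0% falling. Of the 317 genes lower in PDAT, 4 rose and 103 fell (32.5%). CT-BMY rose in CL37 by 2.27 on the log2 scale, PARG2 by 3.34, GSTU22 by 3.62 and BZIP60 by 1.72. MGL, lower in PDAT (-3.05), changed by -0.062 over this step, and AOC3 by 0.57 (adjusted p = 0.893 and 0.296). This step in CL37 also takes place in seeds with the hydroxylase, and the part of age in the differences between PDAT and fae1 was not tested. A fit with the score as a covariate called 10 detoxification genes higher and 7 lower. It called 9 stress transcription factors higher and 1 lower. Of all 18897 tested genes, that fit called 1826 higher and 1805 lower, and it is given with the other settings at the end.

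**Figure D5:**
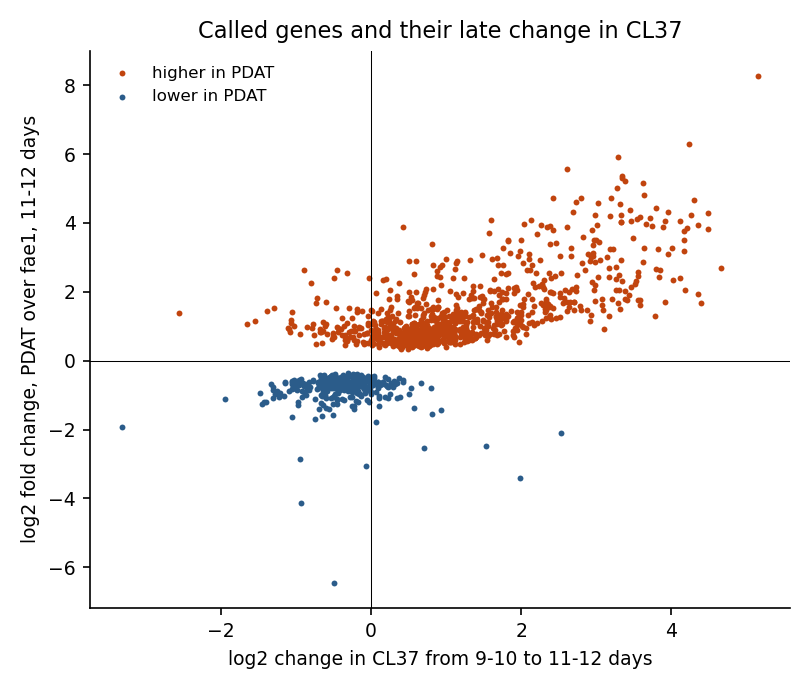
Each point is 1 of the 1249 called genes, with its log2 change in CL37 from 9-10 to 11-12 days on the x axis and its log2 fold change of PDAT over fae1 at 11-12 days on the y axis. Most of the 932 genes higher in PDAT (orange) lie to the right of 0, and most of the 317 lower genes (blue) lie near it or to its left.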

How the data were processed

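The authors' deposited count files give raw counts of reads for 33602 genes in each library. Their 5 summary lines, 4.68% to 15.9% of the total in the 6 libraries, stayed out of library sizes and tests. The authors' deposited FPKM table has 1 pooled value for each line and stage and served only for the label check. Per the submitters' processing notes, the tools were TopHat2 2.0.3, HTSeq 0.5.4p3, Cufflinks 2.0.1, Trimmomatic 0.22 and bcl2fastq 1.8.2, with TAIR10 as the build. Their settings and the use of strand are not given in the sources used here, so overlapping or antisense genes cannot be told apart. Coordinates, symbols and sequences come from the RefSeq assembly TAIR10.1.

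In edgeR 4.0.16 (R 4.3.3, limma 3.58.1), counts were scaled by TMM, filtered on the 9 groups of line and stage, and modelled with robust quasi-likelihood across the 27 libraries, with a common biological coefficient of variation of 0.209. Tests were 2-sided with Benjamini-Hochberg adjustment, and the model was tested on simulated data. DESeq2 1.42.0 was an alternative. Chi-square tests between replicates of the 2 groups gave 8.89 to 31.6 per degree of freedom, far above counting error, so replicate spread limited the precision. Nothing in the labels says that replicates were grown apart, so p values measure only the spread between these samples.

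The genes named are the 12 largest rises and 12 largest falls among called genes with an average log2 CPM of at least 2 and no overlap between groups, at most 4 called genes per list (where there were none, its 2 most abundant genes), 9 lipid genes whatever their test, and 4 genes each way for the contrast with CL37 and for the change with age. A part of them is described. Other list members, families and AT4G29200 were added after their values were seen. The 27 lists hold 639 members, of which 1 was left out since its locus is described as another lipase than the one meant. The comparison, lists and rules were chosen with earlier results of these data known. No list was tested as a set.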

Additional observations from a re-analysis of the deposited data

Results flagged for a closer look

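The difference between PDAT and fae1 changed with age in 1444 genes, by a test of the change between 7-8 and 11-12 days (edgeR, adjusted p below 0.05). The 4 genes with the smallest p each way are given with their log2 values. Towards higher in PDAT, CT-BMY, the plastid beta-amylase gene, changed by 3.73 ± 0.25 (adjusted p = 8.70e-09), AT3G13310, for a J-domain chaperone, by 2.996 ± 0.27 (adjusted p = 8.72e-07), AT3G18560 by 2.25 ± 0.24 (adjusted p = 1.52e-05) and LTI78 by 4.82 ± 0.57 (adjusted p = 8.26e-05). AT3G13310 had 207, 123 and 162 CPM in PDAT seeds, against 28.6, 33.0 and 28.4 CPM in fae1 seeds at 11-12 days. All its PDAT libraries were above all its fae1 libraries. AT3G18560 had 20.3, 14.3 and 19.0 CPM in PDAT seeds, against 6.19, 7.00 and 6.99 CPM in fae1 seeds.

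Towards lower in PDAT, NET3A changed by -1.54 ± 0.26 (adjusted p = 0.00242), AT1G11070 by -1.57 ± 0.25 (adjusted p = 0.00163), the phosphoinositide phosphatase family gene AT3G14205 by -1.62 ± 0.26 (adjusted p = 0.00165) and the ubiquitin protease gene UBP26 by -1.74 ± 0.29 (adjusted p = 0.00227). These 4 were called higher in PDAT at 7-8 days, by 0.73, 1.54, 1.22 and 0.89, and differed by -0.80, -0.040, -0.40 and -0.85 at 11-12 days. At 11-12 days NET3A and UBP26 were called lower, calls lost without PDAT C or fae1 A (adjusted p = 0.0525 and 0.0926) and without PDAT A, PDAT C or fae1 A (adjusted p = 0.115, 0.0586 and 0.0617). All 8 changes stayed called with any 1 of the 12 libraries left out, including the fae1 A library of 7-8 days, whose developmental score of -1.92 stood apart from -3.63 and -3.37 in the B and C libraries of its group.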

How the results depend on the processing

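Against 1249 called genes, 803 were called when non-unique alignments entered the model, 3631 with the developmental score as a covariate, 1976 in a fit of the 6 libraries and 576 with a fold of at least 2. Genes higher in PDAT numbered 1826 with the score and 514 at 2-fold. The 317 lower genes became 632 with DESeq2, 188 without a filter, 92 with the non-unique covariate, 1805 with the score, 691 in the fit of 6, 633 in the fit of the 9 libraries of 11-12 days and 62 at 2-fold. Leaving out 1 library gave 502 to 1454 calls, 451 to 1015 higher and 51 to 439 lower, 278 to 514 calls against CL37, and 354 to 5025 calls for the change with age. That change gave 2290 calls with DESeq2, 957 without a filter and 5320 when the A libraries of fae1 at 7-8 and 9-10 days were left out, a setting chosen after seeing the data. The causes were not tested.

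RLE and upper-quartile factors gave 1275 and 1247 calls and median log2 differences of all genes of 0.013 and 0.030. With the developmental score, 1826 of all 18897 tested genes were called higher and 1805 lower. In that fit 10 of 39 detoxification genes were higher and 7 lower. Lower calls were 12 of 14 storage protein and 10 of 17 oil body genes, and 26 of 33 cell division genes were higher. GSTU9, higher by 1.29 in a call lost without PDAT A, PDAT C, fae1 A or fae1 B (adjusted p = 0.260, 0.0608, 0.137 and 0.149), was at -0.34 with the score, the only reversed sign among the genes recomputed. Of the 74 called genes named by the rule, 42 kept their call in every setting recomputed for single genes.

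The replicate letters did not pair the samples: deviations of same-letter libraries of the 2 lines correlated at -0.047, -0.036 and 0.091. A fit with the replicate block gave 1225 calls over 27 libraries and 1360 over 6. For PDAT against CL37 and the change with age, the block gave 518 and 1439 calls. DESeq2 gave no adjusted p for 373 genes.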

Other observations

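Gene families outside the lists were picked by words in their annotation after the values were seen, and are described without a test of the family, beside 4.93% of all tested genes called higher and 1.68% called lower. The families did not all have many higher calls. Of 321 genes matched by the words for ribosomal proteins, 11 were called higher and 1 lower, and 267 had a positive log2 difference (median 0.18). These words also match relatives. The lower call was MEE5, annotated to a family of ribosomal protein S5 and elongation factors. Of 229 pentatricopeptide repeat protein genes, 2 were called higher and 6 lower, and 86 had a positive log2 difference (median -0.12). Of 50 genes for EF-hand and calmodulin-like calcium sensors, 10 were called higher in PDAT and none lower, and 7 kept the call without any 1 of the 6 libraries. MSS3 had 78.7, 63.1 and 70.01 CPM in PDAT seeds, against 7.57, 9.01 and 8.49 CPM in fae1 seeds, and AT3G25600 had 32.8, 15.2 and 23.64 CPM in PDAT seeds, against 1.48, 1.69 and 1.65 CPM in fae1 seeds. The PDAT libraries were above the fae1 libraries in both, with log2 differences of 3.07 ± 0.28 and 3.88 ± 0.36. Calmodulin itself was among them: CAM2 had 69.4, 43.6 and 62.6 CPM in PDAT seeds, against 11.1, 10.4 and 11.5 CPM in fae1 seeds, a difference of 2.41 ± 0.32 (adjusted p = 3.43e-05).

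Families of cell wall proteins were counted as well. Of 17 xyloglucan endotransglucosylase genes, whose enzymes cut and rejoin wall polymers, 6 were called higher and none lower, and all 6 kept the call without any 1 library. TCH4, known like TCH2 from responses to touch, had 82.0, 58.4 and 62.0 CPM in PDAT seeds, against 8.96, 9.01 and 11.2 CPM in fae1 seeds, a difference of 2.79 ± 0.26 (adjusted p = 4.19e-07), and XTR6 had 60.8, 63.9 and 68.3 CPM in PDAT seeds, against 4.06, 3.86 and 4.74 CPM in fae1 seeds, a difference of 3.93 ± 0.45 (adjusted p = 6.70e-06). Of 28 arabinogalactan protein genes, 9 were called higher and none lower, of which 5 kept the call without any 1 library. AGP15 was abundant, with 808, 558 and 726 CPM in PDAT seeds, against 178, 222 and 206 CPM in fae1 seeds, a difference of 1.78 ± 0.33 (adjusted p = 0.00149), and AGP7 had 26.3, 24.1 and 38.2 CPM in PDAT seeds, against 3.60, 4.66 and 3.61 CPM in fae1 seeds, a difference of 2.90 ± 0.28 (adjusted p = 4.95e-07). Of 17 expansin genes, 2 were called higher and 1 lower, and 1 of the higher genes kept the call without any 1 library.

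Among protein quality genes, 3 of 9 Hsp70 chaperone genes were called higher, of which 2 kept the call without any 1 library. HSC70-1, a cytosolic chaperone, was among the most abundant called genes, with 2829, 2919.5 and 3696 CPM in PDAT seeds, against 1239, 1155 and 1132 CPM in fae1 seeds, a difference of 1.42 ± 0.20 (adjusted p = 7.71e-05). AT3G09440, of the same family, had 248, 305 and 309 CPM in PDAT seeds, against 79.3, 88.5 and 81.0 CPM in fae1 seeds, a difference of 1.79 ± 0.27 (adjusted p = 1.45e-04). Since Hsp70 genes are alike in sequence, reads may be shared between them. Of 37 ubiquitin and ubiquitin-conjugating enzyme genes, 7 were called higher, of which only UBQ3 (0.75 ± 0.16) and UBC9 (1.04 ± 0.19) kept the call without any 1 library.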
